A study of Mus musculus with 8 samples.

Results

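The genes described here are 34 genes of the endoplasmic reticulum (ER) folding machinery and of the unfolded protein response. They were chosen by symbol from the 55414 genes of the expression table, with earlier results of these data known. They were followed in 8 RNA-seq libraries of B16F10 cells, a mouse melanoma line, with 2 libraries in each of 4 groups, all taken after 24 h. WT cells, unmodified, and CypD KO cells, in which *Ppif*, the gene of the mitochondrial protein cyclophilin D (CypD), had been knocked out with CRISPR/Cas9 and puromycin-resistant clones selected, were kept at 21% O2. The other pair of groups was kept at 1% O2: Control cells, a stable line with empty pcDNA, and CypD OE cells, a stable line with pcDNA-CypD, both selected with G418. Whether the knockout line was 1 clone, and whether the libraries of a group came from separate cultures, is not stated in the sources used here, so the spread between libraries may be technical. No library analysed here held WT cells at 1% O2 or vector cells at 21% O2, so oxygen, vector and selection cannot be told apart between Control and WT. Between CypD KO and WT, the loss of *Ppif* cannot be told apart from transfection, puromycin selection and the choice of clones. As the RNA came from whole cultures, fewer cells of a type and less RNA per cell cannot be told apart either.

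Proteins that enter the secretory pathway pass through the Sec61 channel into the ER, where the HSP70 protein BiP (*Hspa5*), the HSP90 protein GRP94 (*Hsp90b1*), lectin chaperones and protein disulfide isomerases fold them. Chains that fail to fold are drawn back to the cytosol and destroyed by ER-associated degradation (ERAD). When unfolded chains accumulate, the membrane sensors IRE1 (*Ern1*), PERK (*Eif2ak3*) and ATF6 start the unfolded protein response, in which IRE1 splices *Xbp1* mRNA and ATF6 and XBP1 switch on chaperone and ERAD genes. Pigment cells carry a heavy load of secretory proteins, since the melanosome enzymes are folded and glycosylated in the ER.

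Values are TPM, a unit of transcript abundance, corrected for gene length, that is relative to all other genes of a library. Together the 34 genes made up 0.924% and 0.926% of all TPM in WT and 0.814% and 0.818% in CypD KO cells. Their share was 1.2% and 1.19% in Control, and it was 0.801% and 0.805% in the libraries labelled CypD OE, here called OE-labelled libraries, since *Ppif* was little raised in them. The summed level was therefore lower in CypD KO than in WT, at 88.2% of the WT mean, and lower in the OE-labelled libraries than in Control, at 67.0% of the Control mean, with no overlap of libraries in either case. A sum is weighted towards abundant genes, such as *Hsp90b1* (WT mean 1532 TPM) and *Calr* (1443 TPM), and need not describe the typical gene. Differences of single genes were fitted with limma on log2(TPM + 1) over 13526 genes that reached 1 TPM in 2 or more libraries, and a gene is called higher or lower where its Benjamini-Hochberg adjusted p over these genes is under 0.05. *Derl3*, at 0 to 0.62 TPM, or at most approximately 8.5 fragments in a library, was below this filter and was not tested. That left 33 of the 34 genes.

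Between CypD KO and WT, 8 of the 33 genes were higher, 15 lower and 10 not called. Over all genes tested, 30.1% were called higher and 18.4% lower, so the share lower among these genes (15 of 33) was above that background and the share higher (8 of 33) was below it. After rescaling of the libraries by median-of-ratios size factors, which moved the median log2 difference of all genes from 0.089 to -0.0091, 5 of the 33 were higher and 16 lower, against 23.6% and 25.8% of all genes. Over the 33 genes the log2 fold change had a median of -0.0027, and of -0.11 after rescaling. Between the OE-labelled libraries and Control, 2 genes were higher, 27 lower and 4 not called, against 19% higher and 18.3% lower over all genes, and the median log2 fold change was -0.43 for the 33 genes and 0.0021 for all genes. The 2 comparisons share no library. Of the genes lower in CypD KO, 14 of 15 were also lower in the OE-labelled libraries, where they made up 14 of 27. As 27 of the 33 genes were lower there, most of any subset would be too. The overlap was not tested, and its share over all genes was not determined. A further 5 genes, *Ern1*, *Atf6*, *Dnajb9*, *Dnajc10* and *P4hb*, were higher in CypD KO and lower in the OE-labelled libraries. With 27 of the 33 genes lower there, most of the 8 genes higher in CypD KO would be too. The share of such genes over all genes was not determined either.

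**Figure D1:**
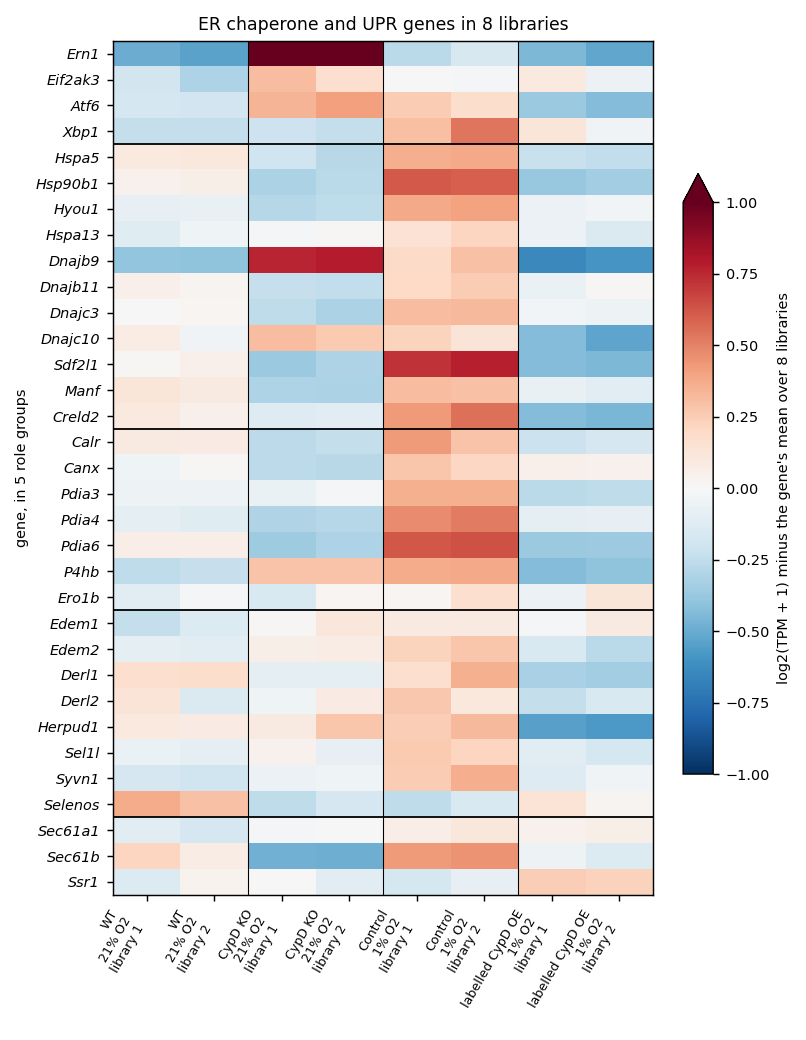
Heat map of the 33 tested genes (rows, in 5 role groups separated by lines) in the 8 libraries (columns, 2 per group). Colour is log2(TPM + 1) minus the gene's own mean over the libraries, on a scale that ends at 1, which *Ern1* in CypD KO exceeds. Control libraries lie above the gene mean for most chaperones, and *Ern1* and *Dnajb9* stand out in CypD KO.

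Depth, taken from the steps between low TPM values, was similar in all libraries, with 1 fragment per 1000 bases worth between 0.0818 TPM and 0.0978 TPM. The targeted gene *Ppif* measured 50.3 ± 0.49 TPM (SD, n = 2) in WT and 11.3 ± 1.2 TPM in CypD KO, 22.4% of the WT mean. It measured 43.4 ± 1.7 TPM in Control and 49.8 ± 0.71 TPM in the OE-labelled libraries, a ratio of 1.15 that limma did not call (adjusted p = 0.0794). Directions drawn from these libraries thus rest on their label and on a western blot of the selected clones. The paper reports that this blot showed CypD overexpression. It measured protein, and not the RNA of these libraries. With 2 libraries per group the smallest p of an exact two-sided permutation test is 0.33, and every adjusted p given here depends on the spread that limma estimated over all groups and genes. The 2 libraries of a group differed by a median of 0.025 to 0.057 on the log2 scale over the genes described here. The widest gap was that of *Derl2* in WT, at 0.28. The exons of 9 of the 34 genes overlap those of another gene listed at a mean of at least 1 TPM, and whether reads were counted by strand is not given in the sources used here. The longest overlaps were those of *Manf* with *Rbm15b* (3962 bases, same strand), *Hspa5* with *Rabepk* (2457 bases, opposite strand) and *Xbp1* with *Ccdc117* (1526 bases, opposite strand), and reads from these stretches may belong to either gene.

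Of the 34 promoters, 10 hold the same composite sequence. The genes were chosen as part of a response in which ATF6 acts, so this count is not independent of the choice. The ER stress response element (ERSE) is the textbook binding sequence of ATF6 with the factor NF-Y and reads CCAAT, then 9 bases, then CCACG. Windows of 250 bases upstream of the annotated start site of the canonical transcript were read from the mouse genome GRCm39, with the GENCODE M39 annotation, on both strands. The whole element was in 25 of 21770 protein-coding promoters (0.115%), and 10 of these 25 belonged to the 34 genes (29.4% of them). Its parts were common: CCAAT was in 36.5% of all promoters and in 64.7% of these, and CCACG in 30.4% and 70.6%. The matches are shown because the same letters stand in promoters of both chaperone and ERAD genes, although most of the 34 promoters lack them. Each is written 5′ to 3′ in the direction from CCAAT to CCACG, on the strand named, with the element in capitals and 5 neighbouring bases on each side in lower case.
*Hspa5* (chr2:34662032-34662060, plus strand): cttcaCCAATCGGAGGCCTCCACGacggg
*Hsp90b1*, distal (chr10:86541497-86541525, minus strand): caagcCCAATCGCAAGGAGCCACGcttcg
*Hsp90b1*, proximal (chr10:86541392-86541420, plus strand): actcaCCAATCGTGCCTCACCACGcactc
*Dnajc3* (chr14:119175234-119175262, plus strand): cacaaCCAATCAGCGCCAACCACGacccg
*Creld2* (chr15:88703718-88703746, minus strand): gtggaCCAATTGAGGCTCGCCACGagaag
*Calr* (chr8:85573699-85573727, plus strand): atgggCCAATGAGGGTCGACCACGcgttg
*Canx* (chr11:50216622-50216650, minus strand): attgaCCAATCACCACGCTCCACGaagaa
*Pdia6* (chr12:17316487-17316515, plus strand): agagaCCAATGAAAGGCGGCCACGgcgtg
*Ero1b* (chr13:12580558-12580586, minus strand): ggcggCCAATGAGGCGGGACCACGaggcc
*Derl3* (chr10:75729071-75729099, minus strand): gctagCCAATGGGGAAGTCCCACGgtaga
*Syvn1* (chr19:6096557-6096585, plus strand): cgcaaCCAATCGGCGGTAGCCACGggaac
The 9 bases between the parts differ from gene to gene. In 6 of the 11 matches the element read in the direction of the gene and in 5 against it. *Hsp90b1* was the one gene of the 34 with 2 matches, from -142 to -124 and from -37 to -19 relative to its start site. The remaining matches began between -162 (*Derl3*) and -41 (*Pdia6*). A match describes the letters of a window and is not evidence of binding, and windows without a match may hold variants of the element.

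**Figure D2:**
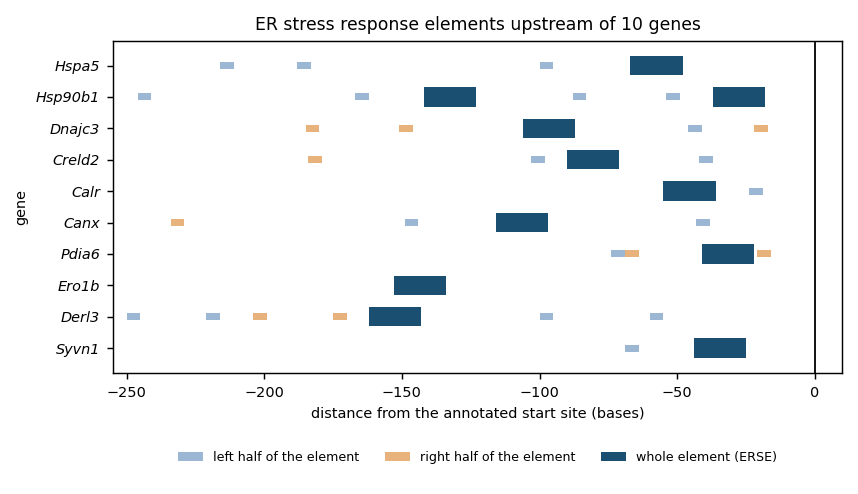
Position of each ERSE match (wide dark bars) and of every CCAAT and CCACG (thin pale bars) in the 250 bases upstream of the start site (vertical line at 0) of the 10 genes that hold an ERSE match, with distance in bases on the horizontal axis. The 11 whole elements lie between -162 and -19, and single parts occur inside and outside this range, as far as -250 (*Derl3*).

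Shorter sequences were searched in the same windows. The unfolded protein response element TGACGTG, the core to which XBP1 and ATF6 bind, was in 2 of the 34 promoters (5.88%), those of *Hspa5* and *Hyou1*, and in 1.52% of all promoters. The sequence ACGTG, a form of the hypoxia response element core to which hypoxia-inducible factors bind, was in 13 of the 34 (38.2%) and in 17% of all. Other forms of that core were not searched. TGACGTG contains ACGTG, so both of its matches count under both names, and where CCACG is followed by T it overlaps ACGTG on the other strand.

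All 3 sensors rose in CypD KO cells, where 30.1% of all genes tested were called higher, while *Xbp1* did not pass the test. *Ern1* (ENSMUSG00000020715, chr11:106283818-106378686), the gene of the kinase and ribonuclease IRE1, was at 10.5 TPM and 10.2 TPM in WT and at 37.5 TPM and 35.4 TPM in CypD KO. It was at 12.4 TPM and 13.5 TPM in Control and at 10.9 TPM and 10.3 TPM in the OE-labelled libraries. Both CypD KO libraries thus lay far above the other 6, and their mean was 3.52 times that of WT (log2 fold change 1.72 with SE 0.075, limma adjusted p = 8.53e-06), the largest change of the 33 genes in this comparison. Against Control, the OE-labelled libraries were lower without overlap (log2 fold change -0.27 with SE 0.075, limma adjusted p = 0.0286), but the call was lost in the fit of the 4 libraries alone (adjusted p = 0.0895), without OE-labelled library 1 (0.0614), without OE-labelled library 2 (0.125) and without Control library 2 (0.134).

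*Atf6* (ENSMUSG00000026663, chr1:170532026-170696208), the gene of a membrane-bound transcription factor that is cut free under stress, was at 18.0 TPM and 17.8 TPM in WT and at 26.2 TPM and 27.5 TPM in CypD KO. In Control it was at 24.6 TPM and 23.2 TPM, and in the OE-labelled libraries at 15.6 TPM and 14.9 TPM. CypD KO was at 150.1% of WT (log2 fold change 0.56 with SE 0.063, limma adjusted p = 4.51e-04) and the OE-labelled libraries were at 63.8% of Control (log2 fold change -0.62 with SE 0.063, limma adjusted p = 4.79e-04), with no overlap in either comparison. *Eif2ak3* (ENSMUSG00000031668, chr6:70821461-70882235), the gene of the PERK kinase that slows translation under stress, was at 14.4 TPM and 13.2 TPM in WT and at 20.7 TPM and 18.7 TPM in CypD KO (log2 fold change 0.49 with SE 0.088, limma adjusted p = 0.00380). In Control it was at 16.5 TPM and 16.3 TPM, inside the range of the OE-labelled libraries, which were at 17.7 TPM and 15.9 TPM (log2 fold change 0.034, limma adjusted p = 0.802).

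*Xbp1* (ENSMUSG00000020484, chr11:5470606-5483027) gives the transcription factor whose active form needs IRE1 splicing, which a gene total does not show. Its level was 61.8 TPM and 61.8 TPM in WT and 63.0 TPM and 61.9 TPM in CypD KO, a log2 difference of 0.014 with a standard error of 0.083 (limma adjusted p = 0.907). In the groups kept at 1% O2 it was at 90.3 TPM and 106 TPM in Control and at 79.3 TPM and 71.5 TPM in the OE-labelled libraries, and the Control libraries were the farthest apart of any group for this gene. The OE-labelled libraries were lower than Control (log2 fold change -0.38 with SE 0.083, limma adjusted p = 0.0121), a call lost in the fit of the 4 libraries alone (adjusted p = 0.0590) and without OE-labelled library 2 (0.0709).

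**Figure D3:**
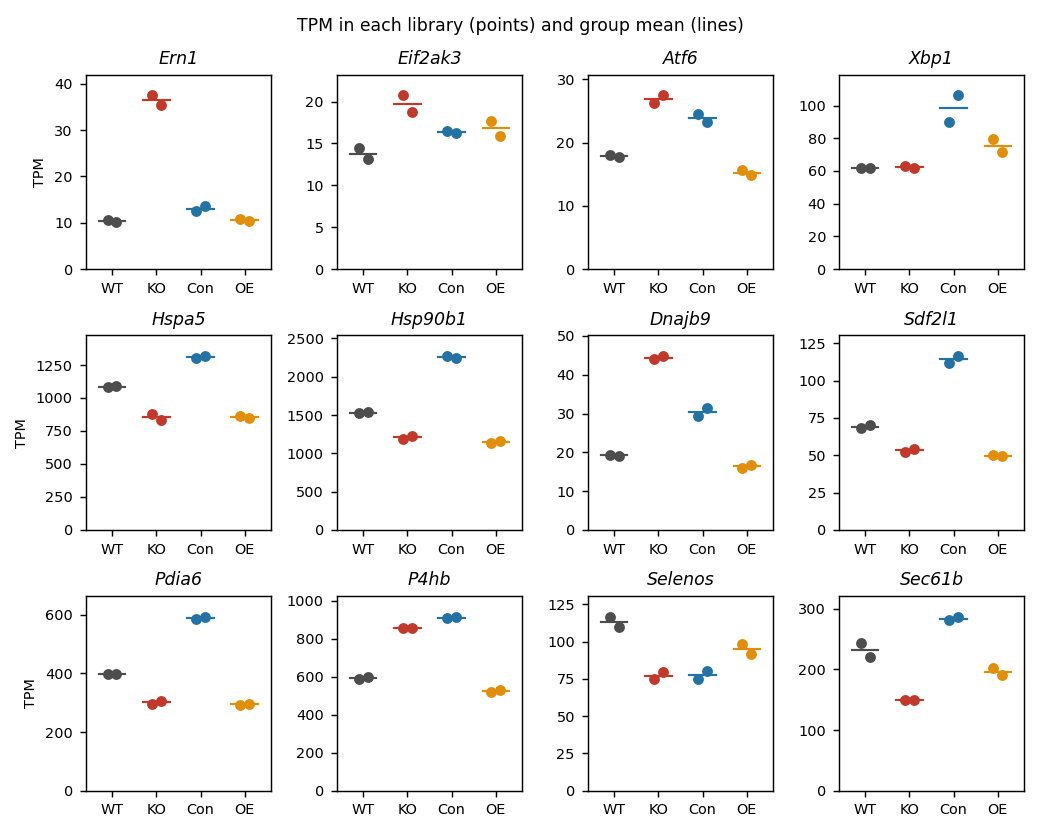
TPM of 12 genes in each library (points) with the group mean (lines), for WT and CypD KO (KO) at 21% O2 and Control (Con) and the OE-labelled libraries (OE) at 1% O2, on axes that start at 0. *Ern1* and *Dnajb9* are highest in CypD KO, *Hsp90b1*, *Sdf2l1* and *Pdia6* are highest in Control, and *P4hb* is high in both CypD KO and Control.

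The HSP70 and HSP90 chaperones and their partners formed the largest group, with 11 genes. In CypD KO, 8 of them were lower than in WT, 2 were higher and 1, *Hspa13*, was not called. In the OE-labelled libraries all 11 were lower than in Control. Of all genes tested, 30.1% were higher and 18.4% lower in CypD KO, and 19% and 18.3% in the OE-labelled libraries. The summed TPM of the group was 3832 and 3839 in WT, 3109 and 3097 in CypD KO, 5051 and 5059 in Control, and 3074 and 3086 in the OE-labelled libraries. The CypD KO mean was 80.9% of WT, and the mean of the OE-labelled libraries was 60.9% of Control.

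*Hspa5* (ENSMUSG00000026864, chr2:34661982-34668880), the gene of BiP and the abundant HSP70 of the ER, was at 1084 TPM and 1088 TPM in WT and 881 TPM and 834 TPM in CypD KO. It was at 1301 TPM and 1317 TPM in Control and at 865 TPM and 852 TPM in the OE-labelled libraries, and in each comparison all libraries of 1 group lay above those of the other. CypD KO was at 79.0% of WT (log2 fold change -0.34 with SE 0.030, limma adjusted p = 1.50e-04), and the OE-labelled libraries were at 65.6% of Control (log2 fold change -0.61 with SE 0.030, limma adjusted p = 2.41e-05). *Hsp90b1* (ENSMUSG00000020048, chr10:86526073-86541446), the gene of GRP94 and the one with 2 ERSE matches, had the highest TPM of the 34 genes in WT, with 1522 TPM and 1543 TPM. It was at 1189.7 TPM and 1228 TPM in CypD KO (log2 fold change -0.34 with SE 0.026, limma adjusted p = 7.52e-05). Its level was 2268 TPM and 2239 TPM in Control and 1138 TPM and 1166 TPM in the OE-labelled libraries, 51.1% of Control (log2 fold change -0.97 with SE 0.026, limma adjusted p = 1.51e-06). The OE-labelled libraries lay below every WT library as well.

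*Dnajb9* (ENSMUSG00000014905, chr12:44252341-44257171), which encodes the BiP cochaperone ERdj4, went against its group in CypD KO. It was at 19.2 TPM and 19.2 TPM in WT and 44.0 TPM and 44.8 TPM in CypD KO, 2.31 times the WT mean (log2 fold change 1.17 with SE 0.059, limma adjusted p = 1.42e-05). In Control it was at 29.3 TPM and 31.6 TPM, and in the OE-labelled libraries at 16.1 TPM and 16.7 TPM (log2 fold change -0.86 with SE 0.059, limma adjusted p = 9.11e-05). The 4 groups did not overlap, with CypD KO the highest and the OE-labelled libraries the lowest. *Dnajc10*, the gene of the disulfide reductase ERdj5, was the other gene of the group that rose in CypD KO, from 80.0 TPM and 74.1 TPM to 94.5 TPM and 91.5 TPM (log2 fold change 0.27 with SE 0.059, limma adjusted p = 0.00864). Its call was lost under median-of-ratios scaling (adjusted p = 0.0667), without CypD KO library 1 (0.0528) and without WT library 2 (0.0508). It fell in the OE-labelled libraries, to 56.1 TPM and 52.6 TPM from 89.0 TPM and 83.4 TPM in Control.

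*Sdf2l1* (ENSMUSG00000022769, chr16:16948002-16950252), whose product helps the cochaperone ERdj3 keep BiP clients soluble, changed most of the 33 genes between the OE-labelled libraries and Control. It was at 112 TPM and 116 TPM in Control and 49.9 TPM and 49.2 TPM in the OE-labelled libraries, 43.4% of Control (log2 fold change -1.19 with SE 0.043, limma adjusted p = 5.86e-06). In WT it was at 68.0 TPM and 70.1 TPM and in CypD KO at 52.0 TPM and 54.3 TPM (log2 fold change -0.37 with SE 0.043, limma adjusted p = 5.19e-04), so Control stood highest and CypD KO and the OE-labelled libraries lowest. *Creld2* (ENSMUSG00000023272, chr15:88703795-88710890), an ER-resident protein with disulfide isomerase motifs, was at 121 TPM and 131 TPM in Control and 66.0 TPM and 65.1 TPM in the OE-labelled libraries (log2 fold change -0.93 with SE 0.048, limma adjusted p = 2.80e-05). In WT it was at 95.9 TPM and 92.7 TPM and in CypD KO at 81.7 TPM and 82.7 TPM, a smaller difference (log2 fold change -0.20 with SE 0.048, limma adjusted p = 0.0145) whose call was lost without CypD KO library 1 (adjusted p = 0.0673), CypD KO library 2 (0.0518) or WT library 1 (0.0750).

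The other genes of the group were *Hyou1*, the gene of GRP170, which loads BiP with fresh nucleotide, *Dnajb11* (ERdj3) and *Dnajc3* (p58IPK), which bring substrates to BiP, *Manf*, a small secreted protein that binds BiP, and *Hspa13*, an HSP70 relative. The first 4 fell in both comparisons. In CypD KO their log2 fold changes ran from -0.42 (*Manf*) to -0.19 (*Hyou1*), and in the OE-labelled libraries from -0.43 (*Hyou1*) to -0.25 (*Dnajb11*). *Hspa13* was at 34.5 TPM and 36.5 TPM in WT and 37.3 TPM and 37.8 TPM in CypD KO, a difference that was not called (log2 fold change 0.081, -0.030 after rescaling). It fell from 41.6 TPM and 43.7 TPM in Control to 36.1 TPM and 33.8 TPM in the OE-labelled libraries, a call lost without OE-labelled library 2 (limma adjusted p = 0.0526) or Control library 2 (0.0519).

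**Figure D4:**
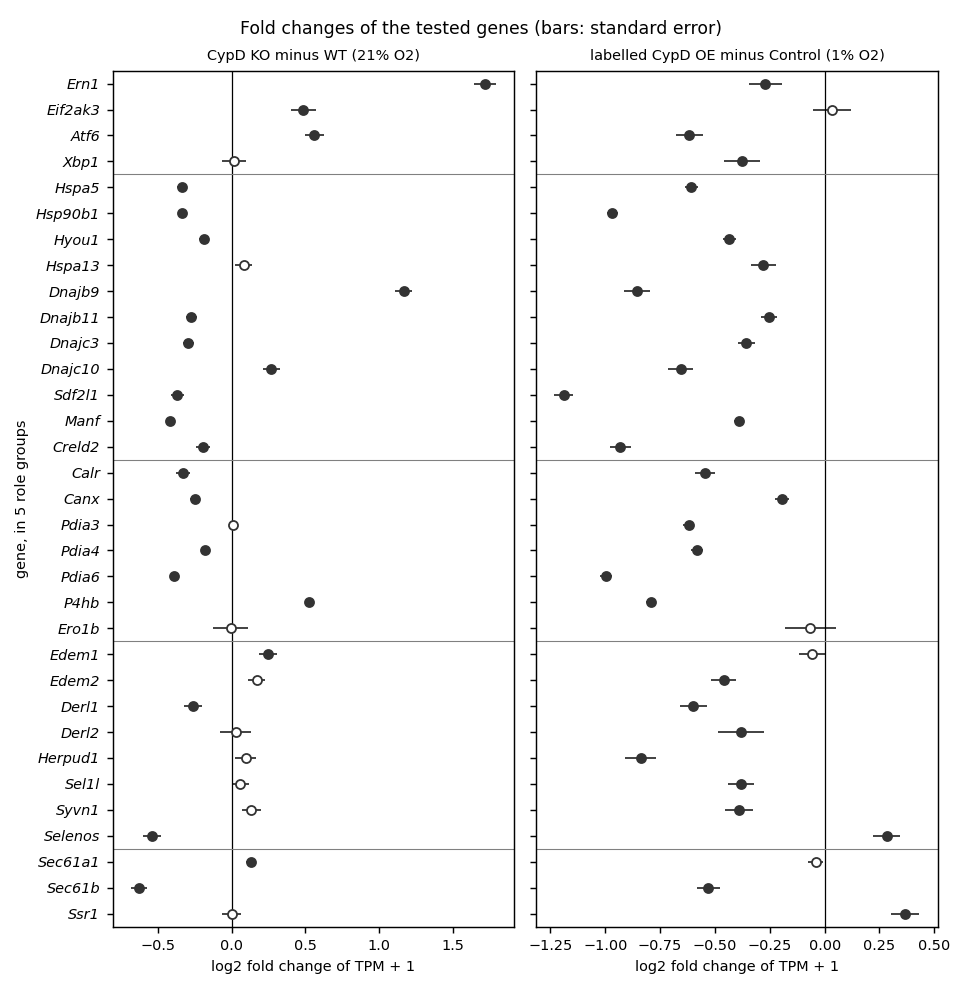
Log2 fold change of TPM + 1 (horizontal axis, bars are the standard error) of the 33 tested genes in CypD KO minus WT (left) and in the OE-labelled libraries minus Control (right), with 2 libraries per group. Filled points have a limma adjusted p under 0.05. On the left 8 filled points lie above 0 and 15 below it, and on the right 2 lie above 0 and 27 below it. The 2 panels have different horizontal scales.

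The lectin chaperones calreticulin (*Calr*) and calnexin (*Canx*), which hold glycoproteins until they are folded, fell in both comparisons. *Calr* was at 1445 TPM and 1441 TPM in WT, 1138 TPM and 1154 TPM in CypD KO, 1828 TPM and 1657 TPM in Control and 1175 TPM and 1209.7 TPM in the OE-labelled libraries. Its log2 fold change was -0.33 in CypD KO and -0.55 in the OE-labelled libraries. For *Canx*, the integral membrane form, the corresponding values were -0.25 and -0.20, and the OE-labelled libraries, at 963 TPM and 959.5 TPM, were above both WT libraries, at 902 TPM and 938 TPM, a difference that was not called.

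Disulfide bonds are made by isomerases, here *Pdia3*, *Pdia4*, *Pdia6* and *P4hb*, and the oxidase *Ero1b* recharges enzymes of this family. All 4 isomerases were lower in the OE-labelled libraries than in Control, beside 18.3% of all genes tested, while in CypD KO they went in different directions. *Pdia6* (ENSMUSG00000020571, chr12:17316533-17335913) was at 585 TPM and 592 TPM in Control and 294 TPM and 295 TPM in the OE-labelled libraries, 50.1% of Control (log2 fold change -0.996 with SE 0.026, limma adjusted p = 1.51e-06). It was at 398 TPM and 397 TPM in WT and 297 TPM and 307 TPM in CypD KO (log2 fold change -0.40 with SE 0.026, limma adjusted p = 4.47e-05). Its level in CypD KO was thus near that in the OE-labelled libraries, and both lay below WT.

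*P4hb* (ENSMUSG00000025130, chr11:120451122-120464538), the classical protein disulfide isomerase and also a subunit of the collagen prolyl 4-hydroxylase, did the opposite in CypD KO. It rose from 590.2 TPM and 599.96 TPM in WT to 856 TPM and 856 TPM in CypD KO (log2 fold change 0.52 with SE 0.023, limma adjusted p = 8.97e-06), close to the 907 TPM and 914 TPM of Control. In the OE-labelled libraries it was at 520.2 TPM and 531 TPM (log2 fold change -0.79 with SE 0.023, limma adjusted p = 2.31e-06), below all other libraries. *Pdia3* (ERp57), the partner of the lectin chaperones, was at 596 TPM and 597 TPM in WT and 589 TPM and 611 TPM in CypD KO with overlapping libraries (log2 fold change 0.0080, limma adjusted p = 0.821). After median-of-ratios rescaling it was called lower (-0.11, adjusted p = 0.0261). In the OE-labelled libraries it was at 65.0% of Control, and *Pdia4* (ERp72) at 66.7%. *Pdia4* was lower in CypD KO too, with a log2 fold change of -0.18. *Ero1b* was low, between 6.78 and 8.74 TPM in the 8 libraries, and not called in either comparison.

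Of the 9 ERAD genes, 8 were tested. In CypD KO 1 was higher, 2 were lower and 5 were not called, and in the OE-labelled libraries 1 was higher, 6 were lower and 1 was not called. The background over all genes tested was 30.1% higher and 18.4% lower in CypD KO, and 19% and 18.3% in the OE-labelled libraries. With 8 genes, only the share lower in the OE-labelled libraries was well above it. *Selenos* (ENSMUSG00000075701, chr7:65729392-65739153), a selenoprotein that ties the ATPase p97 to the derlins, was at 116 TPM and 109.7 TPM in WT and 74.9 TPM and 79.5 TPM in CypD KO (log2 fold change -0.54 with SE 0.060, limma adjusted p = 4.19e-04). It was at 75.1 TPM and 80.5 TPM in Control and 98.4 TPM and 91.3 TPM in the OE-labelled libraries (log2 fold change 0.28 with SE 0.060, limma adjusted p = 0.0106), and in that comparison it was 1 of the 2 genes that rose, although not without OE-labelled library 1 (adjusted p = 0.0628) or Control library 1 (0.0594). WT was thus the highest group, the OE-labelled libraries came next, and Control and CypD KO were lowest with overlapping libraries.

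The derlins form part of the channel through which chains leave the ER. *Derl1* was at 60.3 TPM and 60.7 TPM in WT and 50.4 TPM and 49.9 TPM in CypD KO (log2 fold change -0.26 with SE 0.063, limma adjusted p = 0.0123), a call lost without CypD KO library 1 (adjusted p = 0.0508), CypD KO library 2 (0.0576) or WT library 2 (0.0549). It was at 65.4% of Control in the OE-labelled libraries (log2 fold change -0.60 with SE 0.063, limma adjusted p = 5.40e-04). *Derl2* was lower in the OE-labelled libraries at 76.3% of Control (limma adjusted p = 0.0269), but leaving out OE-labelled library 1, OE-labelled library 2 or Control library 1 ended the call (adjusted p = 0.122, 0.0711 and 0.132), as did testing without the filter (0.0682) or without limma's trend (0.0507).

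*Herpud1*, a stress-induced scaffold of the HRD1 ligase, was at 46.7 TPM and 49.4 TPM in Control and 26.7 TPM and 26.2 TPM in the OE-labelled libraries (log2 fold change -0.84 with SE 0.070, limma adjusted p = 2.12e-04), the largest ERAD change there. In WT it was at 42.1 TPM and 41.8 TPM, a range that overlapped with that of CypD KO, at 41.9 TPM and 47.9 TPM. The ligase gene *Syvn1* (HRD1), its partner *Sel1l* and the mannosidase-like *Edem2* fell in the OE-labelled libraries by 0.39, 0.38 and 0.46 on the log2 scale and were not called in CypD KO. *Edem1*, which marks glycoproteins for destruction, was the one ERAD gene that rose in CypD KO, from 61.5 TPM and 66.0 TPM to 73.0 TPM and 78.6 TPM (log2 fold change 0.25 with SE 0.060, limma adjusted p = 0.0136). That call was lost under median-of-ratios scaling (adjusted p = 0.132), without CypD KO library 2 (0.0788) and without WT library 1 (0.0753). *Edem1* was not called in the OE-labelled libraries (log2 fold change -0.058).

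The 3 translocation genes moved in different directions. *Sec61b* (ENSMUSG00000053317, chr4:47474614-47483864), the small beta subunit of the Sec61 channel, had the largest decrease of the 33 genes in CypD KO, from 243 TPM and 221 TPM in WT to 149 TPM and 149 TPM (log2 fold change -0.63 with SE 0.053, limma adjusted p = 1.20e-04). It was at 281.1 TPM and 286 TPM in Control and 202 TPM and 189.8 TPM in the OE-labelled libraries (log2 fold change -0.53 with SE 0.053, limma adjusted p = 4.36e-04), and CypD KO was the lowest group. *Sec61a1*, the channel itself, was at 225 TPM and 215 TPM in WT and 238 TPM and 242 TPM in CypD KO (log2 fold change 0.13 with SE 0.034, limma adjusted p = 0.0198). Its call was lost under median-of-ratios scaling (log2 fold change 0.014) and without CypD KO library 1 (adjusted p = 0.0567), CypD KO library 2 (0.0915), WT library 2 (0.102) or limma's trend (0.0875). *Ssr1*, a subunit of the translocon-associated TRAP complex, was at 134 TPM and 144 TPM in Control and 180.4 TPM and 179 TPM in the OE-labelled libraries (log2 fold change 0.37 with SE 0.066, limma adjusted p = 0.00524), the larger of the 2 increases there, and was not called in CypD KO.

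**Figure D5:**
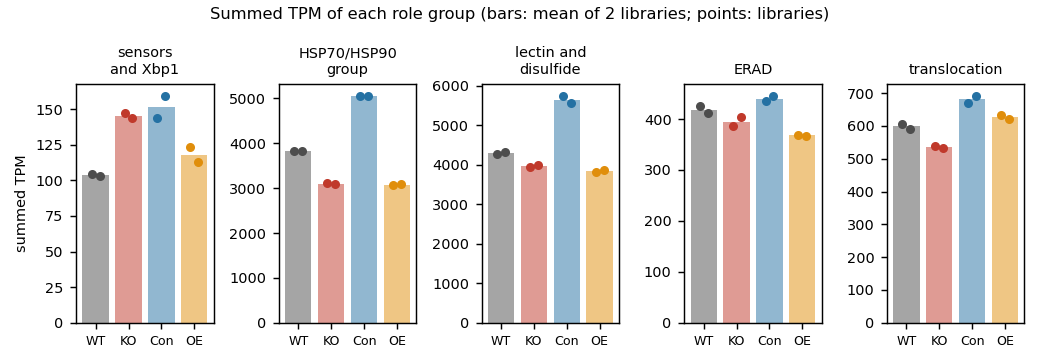
Summed TPM of the 5 role groups in WT and CypD KO (KO) at 21% O2 and in Control (Con) and the OE-labelled libraries (OE) at 1% O2. Bars are the mean of 2 libraries, points the libraries, and the axes start at 0 and differ between panels. The HSP70 and HSP90 group sums to 3832 and 3839 TPM in WT and to 5051 and 5059 TPM in Control. The sensors and *Xbp1* form the one panel in which CypD KO lies above WT.

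The genes with the ERSE sequences printed above were lower or not called in both comparisons. Of the 10, 9 were tested, and in CypD KO 7 were lower, while *Ero1b* (-0.0098) and *Syvn1* (0.13) were not called (median log2 fold change -0.30). Of the 24 genes without a match, 8 were higher and 8 lower (median 0.042), and every one of the 8 increases, those of *Ern1*, *Eif2ak3*, *Atf6*, *Dnajb9*, *Dnajc10*, *P4hb*, *Edem1* and *Sec61a1*, was in this class. Among all genes tested 30.1% were higher and 18.4% lower, so the share higher without a match was close to that background. In the OE-labelled libraries, 8 of the 9 genes with a match were lower and *Ero1b* was not called (median -0.55), against 19 lower and 2 higher of the 24 without (median -0.41). The background there was 19% higher and 18.3% lower. In Control against WT, 8 of the 9 genes with a match were higher and 0 lower (median 0.31). Of the 24 without, 17 were higher and 1 lower (median 0.28), beside 12.1% and 12.1% of all genes. In the OE-labelled libraries against WT, 5 of the 9 were lower and 0 higher, and 11 of the 24 lower and 4 higher. The background for that comparison was 13.7% lower and 14% higher. A difference between the 2 classes was not tested. Outside the 34 genes, 15 promoters held the element, and of the 7 of these genes that were tested 3 were lower in the OE-labelled libraries and 2 in CypD KO, and the others were not called. *Alg12*, a mannosyltransferase gene that runs away from *Creld2* from a start site 188 bases apart, shares the element with it, was at 53.1% of Control in the OE-labelled libraries (log2 fold change -0.82 with SE 0.12, limma adjusted p = 0.00236) and was not called in CypD KO (log2 fold change 0.017). It was chosen after its values were seen.

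Control and WT differ in oxygen, vector and selection together. In Control 25 of the 33 genes were higher than in WT, 1, *Selenos*, was lower and 7 were not called, while over all genes 12.1% were higher and 12.1% lower. On the log2 scale the median difference was 0.29 over the 33 genes and 0.012 over all. Of the HSP70 and HSP90 group 10 of 11 were higher, of the lectin and disulfide group 6 of 7, of the sensors and *Xbp1* 3 of 4, of the ERAD genes 4 of 8 and of the translocation genes 2 of 3. The largest increases were those of *Sdf2l1* (0.72), *Xbp1* (0.66), *Dnajb9* (0.64), *P4hb* (0.61) and *Pdia4* (0.60) on the log2 scale, all with a limma adjusted p of at most 0.00233. *Ern1*, the gene with the largest increase in CypD KO, was higher in Control by 0.30.

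Against WT, the OE-labelled libraries had 4 genes higher, 16 lower and 13 not called, with a background of 14% higher and 13.7% lower over all genes and a median of -0.18 for the 33. The 4 that were higher were *Xbp1* (limma adjusted p = 0.0459), *Edem1* (0.0380), *Sec61a1* (0.00774) and *Ssr1* (0.0186). This count fell to 1 without either of the OE-labelled libraries, without WT library 1 or in the fit of 4 libraries, and to 2 without WT library 2, without the filter or without limma's trend. *Herpud1* was the lowest relative to WT (-0.65), followed by *Creld2* (-0.52), *Derl1* (-0.51) and *Dnajc10* (-0.50). This comparison shares its libraries with those above, and it too joins oxygen, vector and selection with the transgene.

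A further 87 genes of the same pathways were listed by function, also with earlier results of these data known. Among them CypD KO had 36 higher and 20 lower than WT, beside 30.1% and 18.4% of all genes tested. The OE-labelled libraries had 12 higher and 29 lower than Control, beside 19% and 18.3% of all genes tested. These background shares apply to each list that follows, and the lists are small. Rescaling and the other alternative fits were not run for these 87 genes, so their counts and calls rest on the main fit alone. Median-of-ratios rescaling changed the shares of all genes in CypD KO to 23.6% higher and 25.8% lower. Stress signalling genes that act with the sensors had 11 of 20 higher and 6 lower in CypD KO, and 3 higher and 3 lower in the OE-labelled libraries. The pseudokinase *Trib3* rose in CypD KO from 4.26 ± 1.4 to 13.2 ± 0.31 TPM (SD, 2 libraries each), the phosphatase subunit *Ppp1r15a* (GADD34) from 10.6 ± 2.0 to 30.4 ± 1.0 TPM, and the cell death gene *Bbc3* (PUMA) from 2.47 ± 0.64 to 7.21 ± 1.1 TPM. *Ddit3* (CHOP), a stress transcription factor known to act upstream of them, rose in CypD KO (log2 fold change 0.90) and fell in the OE-labelled libraries (-0.53). A second, very short entry of the same symbol was not used. *Atf4*, whose protein is controlled by translation, was not called in either (0.048 and -0.032).

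Of 26 further folding enzymes, 10 were higher and 4 lower in CypD KO, and 3 higher and 12 lower in the OE-labelled libraries. *Ero1a*, the main oxidase of the disulfide isomerases and the close relative of *Ero1b*, was at 88.0 ± 7.1 TPM in WT and 303 ± 16 TPM in CypD KO (log2 fold change 1.77 with SE 0.062, limma adjusted p = 3.79e-06). It was at 266 ± 7.1 TPM in Control and 82.3 ± 0.84 TPM in the OE-labelled libraries (log2 fold change -1.68 with SE 0.062, limma adjusted p = 6.26e-06). *Ero1a* and *P4hb*, the oxidase and an isomerase that it recharges, were thus both high in CypD KO and Control and low in WT and the OE-labelled libraries. The prolyl isomerase *Fkbp7* rose in CypD KO (log2 fold change 1.75) and fell in the OE-labelled libraries (-1.03), while *Fkbp10* fell in both (log2 fold changes -1.68 and -0.59). The oligosaccharyltransferase, which adds glycans to entering chains, had 3 of 11 subunit genes higher and 4 lower in CypD KO, and 7 lower in the OE-labelled libraries with the other 4 not called, the share higher in CypD KO being close to the background and the largest decrease being that of *Ostc* (log2 fold change -0.58). Of 14 translocation and signal peptide genes, 4 were higher and 3 lower in CypD KO and 1 higher and 5 lower in the OE-labelled libraries, where *Sec61g*, the third subunit of the channel, fell by 0.75 on the log2 scale. Both shares in CypD KO were close to the background. *Sil1*, a nucleotide exchange factor of BiP, rose in CypD KO (log2 fold change 1.11). Of 16 ERAD partners, 8 were higher and 3 lower in CypD KO and 5 higher and 2 lower in the OE-labelled libraries, where *Aup1*, a membrane anchor of the degradation machinery, rose most (log2 fold change 0.69).

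All 9 melanocyte markers, among them *Pmel*, *Tyr*, *Tyrp1*, *Dct* and *Mlana*, were above 1 TPM in every library. Their summed level, 15970 to 16080 TPM in WT, 12810 to 12980 in CypD KO, 20870 to 21430 in Control and 13800 to 13980 in the OE-labelled libraries, was highest in Control and lowest in CypD KO. Both it and the summed chaperones were lower in CypD KO than in WT and lower in the OE-labelled libraries than in Control. The part of the pigment programme in the chaperone levels was not tested. Of 6 leukocyte markers, 1 (*Cd68*) was above 1 TPM in every library, while *Ptprc*, *Cd3e*, *Adgre1*, *Csf1r* and *Itgam* stayed below 1 TPM, 2 of them at 0 throughout. The 6 summed to 3.5 to 3.84 TPM in WT and 22.3 to 23.5 in CypD KO. In Control the sum was 4.2 to 4.81 TPM and in the OE-labelled libraries 1.15 to 1.91. Of 6 fibroblast markers 2 were above 1 TPM in every library, with sums of 15.4 to 17.7 TPM in WT, 34 to 36.9 in CypD KO, 19 to 21 in Control and 9.21 to 11.3 in the OE-labelled libraries, and *Dcn*, *Lum* and *Thy1* stayed below 1 TPM, 2 of them at 0 throughout. The 4 endothelial markers summed to at most 1.2 TPM and the 5 epithelial ones were listed at 0 in every library. These sums are small beside those of the chaperones, and their part in the results was not tested.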

How the data were processed

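Total RNA of B16F10 cells was depleted of ribosomal RNA and sequenced as 8 libraries in paired-end reads of 150 bases. According to the paper and the submitters' processing notes, cutadapt 3.4 removed poor sequence, STAR 2.7.8a placed the reads on GRCm39 and RSEM 1.3.1 estimated expression per gene. The authors deposited TPM, a unit with a fixed total per library, so that a rise of abundant transcripts lowers all others, and RSEM divided reads shared between genes. For their own tests the authors used DESeq2 1.26.0 on read counts, which were not used here. Groups came from the labels and columns were matched by library name, with 0 columns left over. Of the gene identifiers, 98.8% were in GENCODE M39.

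TPM holds no depth. The value of 1 fragment was therefore fitted to low values, and 83.5% to 86.1% of them then came within 0.15 of whole fragments, up to 6 fragments (evenly spread values would give 30%). This covers counting error only.

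Genes were fitted as log2(TPM + 1), a scale that understates changes of low genes, with limma 3.58.1 (R 4.3.3; 4 group means, eBayes with trend) and tested two-sided with Benjamini-Hochberg adjustment over 13526 genes. The procedure was tested on simulated data. Values in every library are given at least for the sensors, *Xbp1*, *Hspa5* and the 5 genes of largest absolute change in CypD KO against WT and in CypD OE against Control, among those called and without overlap of libraries. Other pathway genes were named by their rank of change, up to 3 per list and comparison, except *Atf4* and *Alg12*, added after their values were seen. The genes, lists and tests were chosen with earlier results of these data known, and no list count is independent evidence. Promoter sequence was read with Python 3.11.15 from GRCm39.

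Alternatives were a pseudocount of 0.1, no filter and a filter of 5 TPM, median-of-ratios scaling, eBayes without trend, separate fits for each comparison's 4 libraries, the library number as a replicate block, and leaving out each library.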

Additional observations from a re-analysis of the deposited data

How the results depend on the processing

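For single genes in the CypD KO and CypD OE comparisons, 330 and 345 of the alternative fits kept the direction and the side of the threshold, 17 and 15 lost a call, 1 and 0 gained one in the same direction, and 15 and 3 reversed. In CypD KO minus WT, median-of-ratios scaling gave 5 higher genes in place of 8 and reversed *Xbp1* (-0.10), *Hspa13* (-0.030), *Pdia3* (-0.11), *Derl2* (-0.086), *Herpud1* (-0.019) and *Sel1l* (-0.054), none of them called before and *Pdia3* called lower after it (adjusted p = 0.0261). This scaling lowers the median of all genes from 0.089 to -0.0091. Leaving out 1 library at a time reversed uncalled differences near 0, with log2 fold changes in CypD KO of -0.018 to 0.034 (*Pdia3*), -0.10 to 0.079 (*Ero1b*), -0.11 to 0.16 (*Derl2*), -0.0025 to 0.19 (*Herpud1*), -0.0075 to 0.12 (*Sel1l*) and -0.086 to 0.081 (*Ssr1*), and in the OE-labelled libraries of -0.041 to 0.11 (*Eif2ak3*) and -0.16 to 0.026 (*Ero1b*). The number of genes higher in the OE-labelled libraries than in Control was 1 to 2 over the libraries left out. The number higher in the OE-labelled libraries than in WT, 4, fell to 2 without a filter, to 1 in the fit of 4 libraries, to 2 without the trend and to 1 to 2 with a library left out. The cause of these changes was not tested. Library numbers are shared only by name: deviations of libraries of the same number had a correlation of 0.108 between CypD KO and WT and of -0.002 between CypD OE and Control, over genes. With the number as a replicate block, 8 genes were higher and 15 lower in CypD KO and 2 higher and 27 lower in the OE-labelled libraries, as without it. At this depth, *Derl3* could not be compared, and *Ero1b*, with a standard error of 0.12, only coarsely. With a library left out, its group has 1 library, which is assumed to vary like the others. Alternatives for single genes were run only for the 33 tested genes of the main set. They were not run for the further 87 pathway genes or for *Alg12*. The comparisons of Control and CypD OE with WT had no alternatives for single genes either.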
